A study of Rattus norvegicus with 6 samples.

Results

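Uromodulin (Umod), its relative Gp2, the growth factor precursor Egf, the membrane protein Tmem207 and the phosphatase inhibitor Ppp1r1a were followed in rat renal cortex after repeated dosing with tris(2-chloroethyl)phosphate (TCEP). The members were chosen by name. Every non-control probe of the 6 arrays whose accession maps to one of the 5 symbols was taken, which gave 7 of 61657 probes and 4 of the 15278 named genes. Gp2 had 1 probe, and Umod, Egf and Ppp1r1a had 2 each. No probe was matched to Tmem207, which is not analysed here. The choice was made with results of the same contrast in view, in which Gp2 ranked 3 of 11798 genes by unadjusted p, so the differences between TCEP and vehicle for the members are given as descriptions with intervals and without tests.

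Umod is the most characteristic product of the thick ascending limb of Henle's loop, the tubule segment that takes up salt without water. Its protein is held to the apical membrane by a glycosylphosphatidylinositol (GPI) anchor, is cut free by the protease hepsin and forms filaments in urine through its zona pellucida domain. Gp2 encodes a protein of the same architecture, known from the zymogen granules of the exocrine pancreas and from M cells of the intestine, where it binds bacterial fimbriae as uromodulin does in urine. Egf encodes a transmembrane precursor of epidermal growth factor that the distal nephron releases into urine. Ppp1r1a encodes inhibitor 1, a cytosolic protein that blocks protein phosphatase 1 once protein kinase A has phosphorylated it, so it is a thick limb product but not a secreted one. Tmem207 encodes a small membrane protein, and the gene lies beside Cldn16.

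Each array carried the renal cortex of 1 male Sprague-Dawley rat (Crl:CD(SD)), bought at 5 weeks of age. TCEP, an organophosphate flame retardant, was given to 3 rats at 400 mg/kg/day for 4 weeks, and 3 vehicle rats were given corn oil for the same period. The question put by this design is how cortical transcripts differ after TCEP. Levels are log2 processed signals minus the log2 75th percentile of the array, so 0 is the 75th percentile, and differences are TCEP minus vehicle on that scale. Each array had 67.2% to 69.3% of its probes well above background. The 3 TCEP arrays lay on slide 2 and the 3 vehicle arrays on slide 1, each slide with a scan time of its own, so slide and group cannot be told apart in any difference below. Each array is whole cortex, in which fewer cells of a type and less RNA per cell cannot be told apart. All 7 member probes were well above background on all 6 arrays and 0 were saturated. A limma fit over all 11798 tested genes gave 0 (0%) with a Benjamini-Hochberg adjusted p under 0.05 and 983 with an unadjusted p under 0.05, of which 497 were higher (4.21%) and 486 lower (4.12%). None of the 7 member probes passed the same threshold in the fit of 41040 probes, where 0% of all probes did.

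Gp2 was the member whose groups stood apart. Its probe (A_44_P425150) had a log2 level of 1.26, 0.77 and 1.17 in TCEP rats 1, 2 and 3, against -0.93, -1.03 and -0.45 in vehicle rats 1, 2 and 3. All TCEP rats thus lay above all vehicle rats, with a gap of 1.21 between the lowest TCEP and the highest vehicle level. In processed intensity the TCEP arrays read 2581, 1653 and 2171 units, against 506.2, 476.4 and 725.9 units on the vehicle arrays. The means were 1.06 ± 0.26 in TCEP and -0.80 ± 0.31 in vehicle cortex (SD, n = 3 each), a difference of 1.87 (SE 0.20, 95% confidence interval 1.38 to 2.35) or 3.65-fold. This is the value for which Gp2 was chosen and is not evidence of its own. Of the 41040 probes tested, 15.3% had groups that did not overlap, 7.15% with TCEP above and 8.11% with TCEP below, and among the members 1 of 7 probes did.

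**Figure D1:**
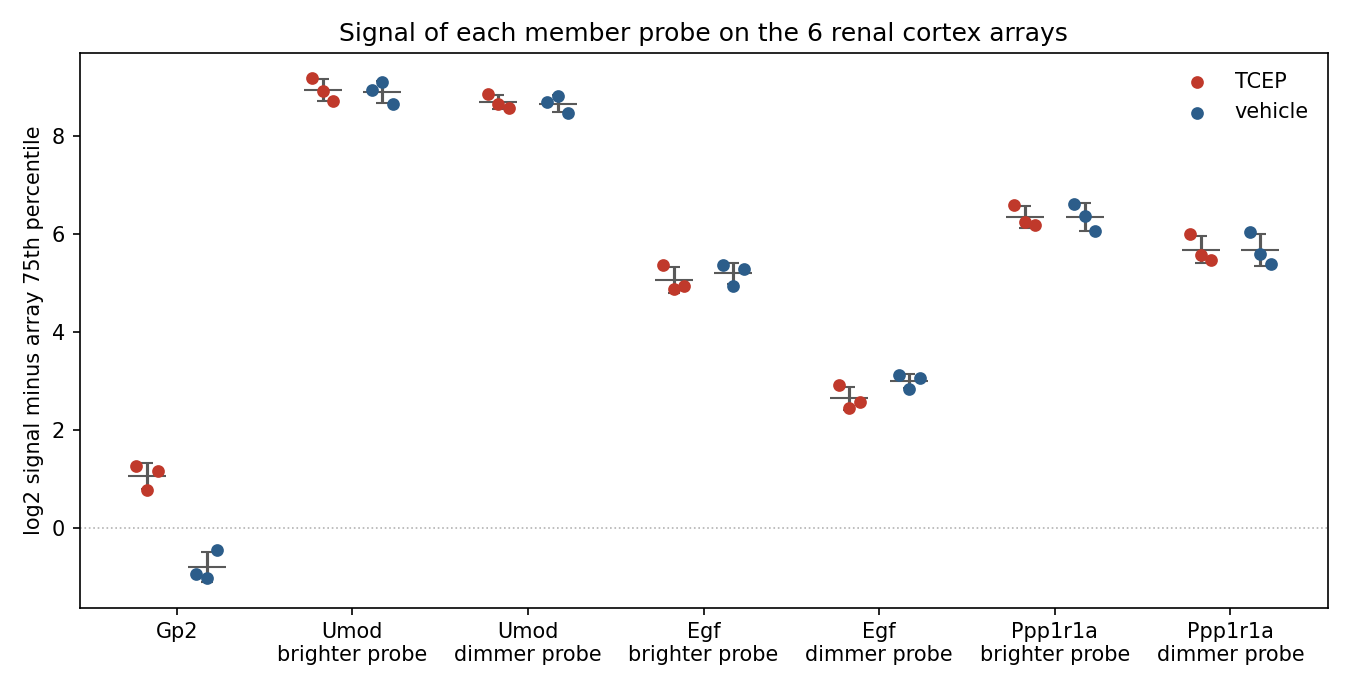
Log2 signal relative to the array's 75th percentile (y axis) for the 7 member probes (x axis) in 3 TCEP (red, left) and 3 vehicle rats (blue, right), 1 point per array with the mean and SD as grey bars. For Gp2 the TCEP points lie between 0.77 and 1.26 and the vehicle points between -1.03 and -0.45, while the groups overlap at each of the other 6 probes.

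Gp2 and Umod lie side by side on the minus strand of rat chromosome 1, and their start regions are shown as a description only. The windows run from 250 bases before to 50 bases after the annotated start and come from RefSeq on GRCr8 (Gp2 chr1:183243905-183244204, minus strand, and Umod chr1:183260967-183261266, minus strand). Capitals mark matches, on either strand, to the TATA element TATAAA, the estrogen-related receptor element AAGGTCA and the CCAAT box.
Gp2: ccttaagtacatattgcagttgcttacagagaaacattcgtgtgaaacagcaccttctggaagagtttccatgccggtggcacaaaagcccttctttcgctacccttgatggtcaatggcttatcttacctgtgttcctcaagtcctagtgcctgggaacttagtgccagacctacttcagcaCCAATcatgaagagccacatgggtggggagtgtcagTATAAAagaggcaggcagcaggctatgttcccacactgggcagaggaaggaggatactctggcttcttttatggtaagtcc
Umod: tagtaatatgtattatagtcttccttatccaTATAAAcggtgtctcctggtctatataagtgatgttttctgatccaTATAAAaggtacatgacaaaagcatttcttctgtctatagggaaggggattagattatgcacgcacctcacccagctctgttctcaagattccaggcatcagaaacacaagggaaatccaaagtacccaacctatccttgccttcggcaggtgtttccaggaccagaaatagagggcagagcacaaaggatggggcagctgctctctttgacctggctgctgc

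The Gp2 window held TATAAA beginning at -31 from the start and CCAAT beginning at -67. The Umod window held TATAAA at -219 and -173, and its gene record extends 649 bases further upstream than the start used for the window, so these positions refer to an internal start. Among 33469 rat windows of this length, TATAAA was found in 14.2%, CCAAT in 37.5% and AAGGTCA in 4.61%. Neither window held AAGGTCA, and the Egf window held none of the 3. GTTAAT, present in 7.45% of the rat windows, was also searched and had no match in the Gp2, Umod or Egf window. The matches are descriptions of letters. Windows of Ppp1r1a and Tmem207 are not used here.

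Umod itself was level between the groups. Its brighter probe (A_43_P11809) had a log2 level of 9.18, 8.91 and 8.73 in TCEP rats and 8.94, 9.11 and 8.66 in vehicle rats. The groups overlapped, with TCEP rat 1 highest and vehicle rat 3 lowest. The corresponding intensities were 625721, 468830 and 409000 units in TCEP rats, against 476247, 536489 and 400136 units in vehicle rats, with no array saturated. The means were 8.94 ± 0.23 in TCEP and 8.91 ± 0.23 in vehicle cortex, a difference of 0.04 (SE 0.16, 95% confidence interval -0.36 to 0.43). The dimmer probe (A_64_P022545) read 8.86, 8.66 and 8.57 in TCEP rats and 8.70, 8.81 and 8.48 in vehicle rats, with a difference of 0.03 (SE 0.12, 95% confidence interval -0.26 to 0.33). Both probes placed the 6 animals in the same order, and the spacing between them stayed between 0.16 and 0.33 on every array, with a mean of 0.24 in each group.

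Egf had a lower mean with TCEP at both of its probes, to unequal degrees. The brighter probe (A_42_P831499) read 5.37, 4.87 and 4.93 in TCEP rats, against 5.36, 4.95 and 5.29 in vehicle rats. TCEP rat 1 was the highest of the 6 and TCEP rats 2 and 3 were the lowest, so the groups overlapped. The means were 5.06 ± 0.27 in TCEP and 5.20 ± 0.22 in vehicle cortex, a difference of -0.14 (SE 0.17, 95% confidence interval -0.57 to 0.29). The dimmer probe (A_64_P120734) read 2.91, 2.45 and 2.57 in TCEP rats, against 3.12, 2.84 and 3.06 in vehicle rats. TCEP rat 1 again lay inside the vehicle range, and the difference was -0.36 (SE 0.15, 95% confidence interval -0.72 to -0.01). The spacing between the probes of Egf was 2.42 ± 0.05 on TCEP arrays, between 2.37 and 2.46, against 2.19 ± 0.07 on vehicle arrays, between 2.11 and 2.24. Both probes carry the same transcript accession, and the cause of the unequal spacing was not tested. Without vehicle replicate 2 the difference at the brighter probe was -0.26, without TCEP replicate 1 it was -0.30 and without TCEP replicate 2 it was -0.05.

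Ppp1r1a showed the smallest differences of the members. Its brighter probe (A_43_P12287) had a log2 level of 6.60, 6.24 and 6.18 in TCEP rats and 6.62, 6.36 and 6.06 in vehicle rats. Vehicle rats 1 and 3 held the highest and the lowest level and enclosed all TCEP rats. The means were 6.34 ± 0.23 in TCEP and 6.35 ± 0.28 in vehicle cortex, a difference of -0.01 (SE 0.18, 95% confidence interval -0.44 to 0.43). The dimmer probe (A_64_P145261) read 6.0, 5.57 and 5.47 in TCEP rats and 6.04, 5.59 and 5.39 in vehicle rats, a difference of 0.01 (SE 0.21, 95% confidence interval -0.51 to 0.53). As with Umod, both probes ranked the 6 animals identically.

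**Figure D2:**
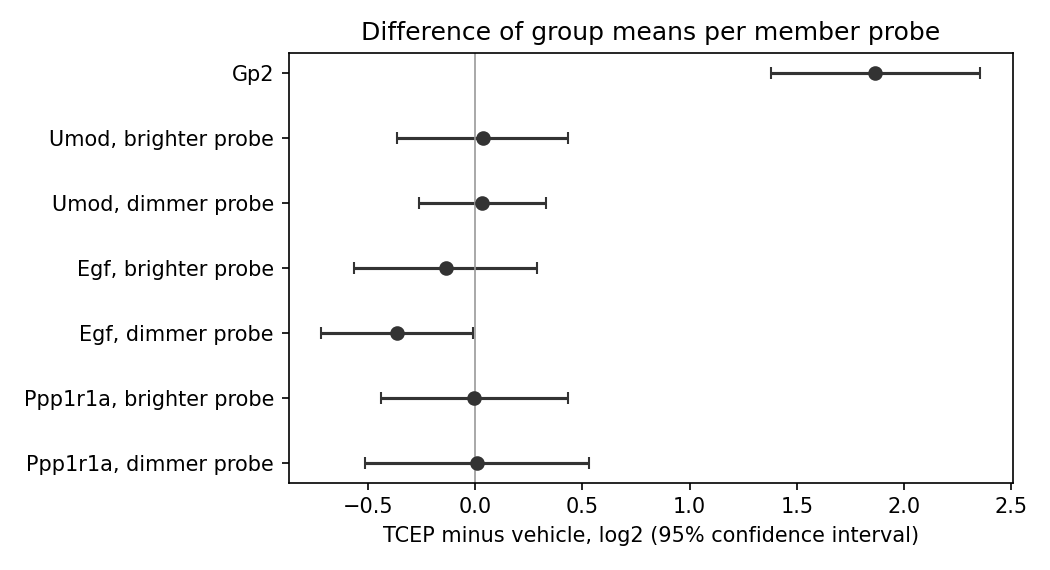
Difference of group means, TCEP minus vehicle on the log2 scale (x axis), with its 95% confidence interval for each member probe (y axis). The Gp2 interval runs between 1.38 and 2.35, the dimmer Egf probe ends at -0.01, and the intervals of the other 5 probes span 0.

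The members varied more between animals of 1 group than most transcripts did. Their within-group SDs lay between 0.16 and 0.31, against a median of 0.13 over all tested genes, and were larger than those of 59.8% to 85.2% of them. For Umod this variation had a recognisable shape, with TCEP rat 1 and vehicle rat 2 high and vehicle rat 3 and TCEP rat 3 low. Among the transcripts whose 6 values followed the brighter Umod probe most closely were Orai2, a subunit of store-operated calcium channels (Pearson r = 0.989 over 6 arrays), Slc15a2, the high-affinity peptide transporter of the late proximal tubule (0.987), the kinase gene Stk32b (0.985) and the activin receptor gene Acvr1c (0.985). In all, 206 tested genes had an r above 0.9 with Umod, a count that describes 6 arrays sharing slides and scaling. Slc15a2 read 1.05, 0.15 and -0.46 in TCEP rats and 0.44, 0.87 and -0.41 in vehicle rats. Slc7a13, an amino acid transporter of the last proximal segment that was chosen after its values were seen, read 7.72, 6.84 and 6.0 in TCEP rats and 6.03, 7.13 and 5.59 in vehicle rats. Slc34a1, the phosphate transporter of the early proximal tubule, lay between 8.25 and 8.51 in TCEP rats and between 8.39 and 8.48 in vehicle rats. The proximal tubule gene Slc5a2 varied more, at 6.88, 7.45 and 7.58 in TCEP rats and 7.33, 7.15 and 7.34 in vehicle rats. TCEP rat 1 was its lowest. The part of the sampled depth of cortex in these differences between animals was not tested.

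**Figure D3:**
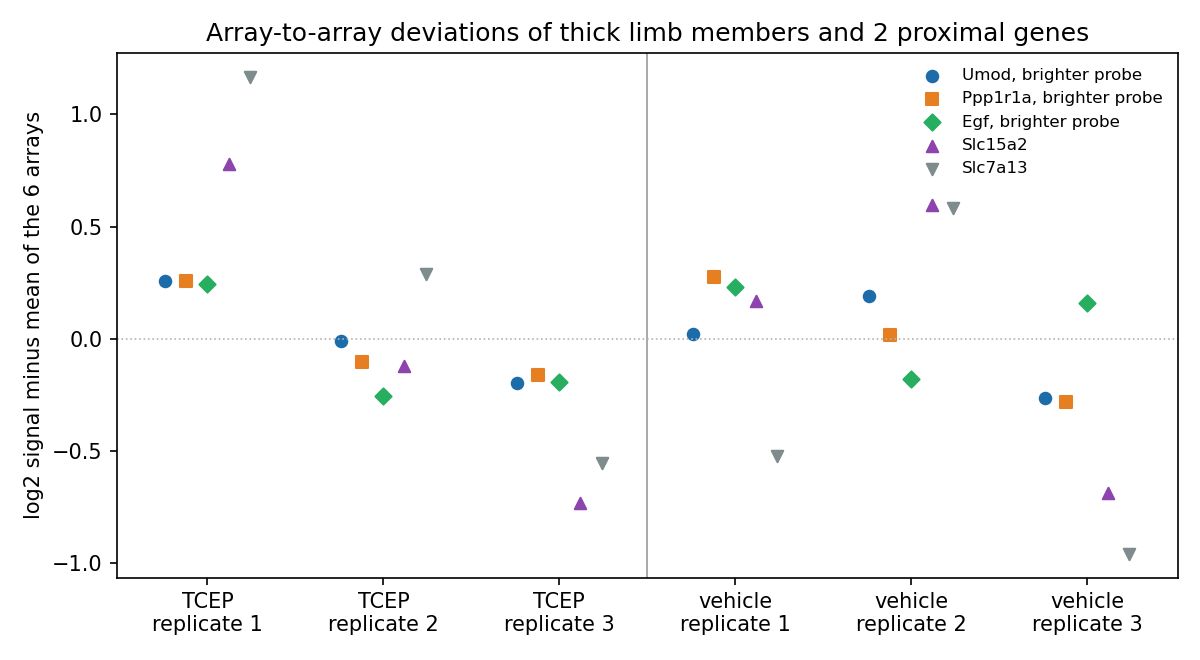
Deviation of each array from the mean of the 6 arrays (y axis, log2) for Umod, Ppp1r1a and Egf (brighter probes) and for the proximal transporter genes Slc15a2 and Slc7a13, with the 3 TCEP arrays left of the line and the 3 vehicle arrays right of it. TCEP replicate 1 lies above 0 for all 5 genes, TCEP replicate 3 lies below 0 for all 5, and the transporters spread more widely than the members. The genes differ on the vehicle arrays. Egf lies below 0 on vehicle replicate 2 and above 0 on vehicle replicate 3, and Umod does the reverse.

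Gp2 followed another pattern, set by its difference between groups. The closest transcripts were Synm, which encodes the intermediate filament protein synemin (r = 0.998), Pcid2 (0.994), Nelfe (0.993), Cdh13, the GPI-anchored T-cadherin (0.987), and the prefoldin subunit gene Pfdn2 (0.986), and 171 genes exceeded 0.9. Since Gp2 was chosen for its group difference, genes picked by likeness to it largely repeat that split and are no evidence of their own. In 8.64% of all tested genes all TCEP rats lay above all vehicle rats. The named genes had smaller differences than Gp2. Cdh13, at -2.25, -2.40 and -2.24 in TCEP rats and -2.87, -2.88 and -2.85 in vehicle rats, differed by 0.57 (SE 0.07), and Synm differed by 0.24 (SE 0.06).

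Neighbouring genes give the surroundings of Gp2 and Umod. In the RefSeq order the 2 genes are followed by Pdilt, Acsm5, Acsm2, RGD1559600 and Acsm1, and the Pdilt record overlaps those of the genes after it. Pdilt, a disulfide isomerase-like gene best known from testis, lay at -4.57, -5.22 and -5.11 in TCEP rats, against -6.43, -5.80 and -6.39 in vehicle rats. All TCEP rats lay above all vehicle rats, with a difference of 1.24 (SE 0.24), but the probe was dim, clearing background on all 3 TCEP arrays but only 1 vehicle array, and with normexp background correction the difference was 0.27. The Acsm genes encode acyl-CoA synthetases of mitochondria. Acsm2 differed by 0.19 (SE 0.15), Acsm1 by -0.31 (SE 0.28) and -0.43 at its 2 probes, and RGD1559600 by -0.78 (SE 0.33). The 3 probes of Acsm5 disagreed, with 0.12 (SE 0.24), -1.16 (SE 0.47) and -2.30 (SE 1.02). At the last of these all TCEP rats lay below all vehicle rats, at 0.20, -0.13 and -3.70 in TCEP rats, against 0.87, 1.20 and 1.20 in vehicle rats, with TCEP rat 3 far from the others. The groups overlapped at the other 2 probes. Umod, which lies between Gp2 and these neighbours, was at 0.04 and 0.03.

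**Figure D4:**
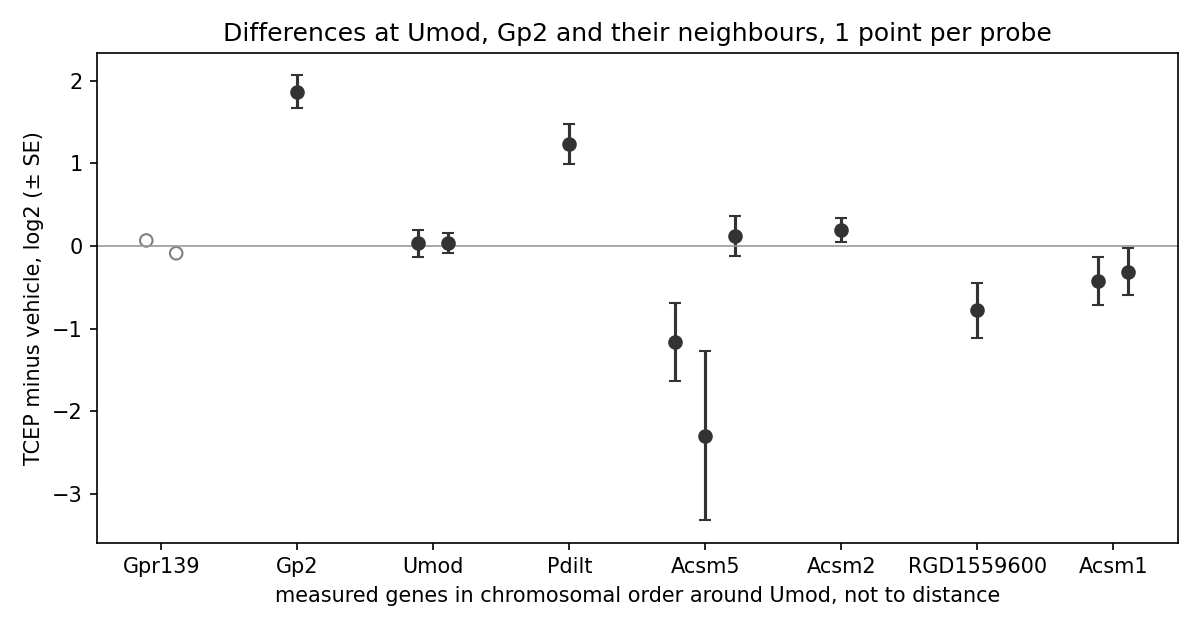
Difference of group means, TCEP minus vehicle with its SE (y axis, log2), for each probe of Gp2, Umod and the measured genes on either side, in chromosomal order on the x axis and not to distance. Gp2 at 1.87 and Pdilt at 1.24 stand above the others, and Umod lies at 0.04 and 0.03. The Pdilt probe was dim, and cleared background on all 3 TCEP arrays but only 1 vehicle array. Open circles are probes that were not well above background throughout either group.

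Beside Egf, the fatty acid elongase gene Elovl6 was lower in all TCEP rats than in all vehicle rats at both of its probes. Its differences were -0.38 (SE 0.11) and -0.41 (SE 0.14), and 8.11% of all tested probes had TCEP below. The groups overlapped at the neighbours Gar1 (-0.08, SE 0.08) and Cfi (0.03, SE 0.07). Rrh and Dcm5 were not well above background on any array. Cldn16, which encodes a claudin of the thick limb and lies next to Tmem207, read -0.18, -0.47 and -0.62 in TCEP rats and -0.29, -0.47 and -0.58 in vehicle rats. Its groups overlapped, and its probes differed by 0.02 and 0.07. Around Ppp1r1a, the phosphodiesterase gene Pde1b differed by -0.05 (SE 0.12), the blood cell gene Nckap1l by -0.19 (SE 0.12) and -0.18 (SE 0.13), and Glycam1, its direct neighbour, by -0.02 (SE 0.25) and -0.37 (SE 0.17).

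The other genes of the thick limb were, for the most part, a little lower with TCEP. Of 28 listed genes for its salt and ion transport 25 could be tested, of which 6 had a higher and 19 a lower mean, and 0 passed the adjusted threshold (0% of all genes did). The median difference was -0.10 (-0.06 without vehicle replicate 1), against 0.01 over all 11798 genes, of which 52.5% were higher. In 1 listed gene all TCEP rats lay above all vehicle rats and in 5 they lay below, against 8.64% and 6.98% of all genes (15.6% in both directions together). The sodium-potassium-chloride cotransporter gene Slc12a1 is the defining marker of the segment and no probe was matched to it.

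Kcnj1, the apical potassium channel ROMK that returns potassium to the lumen, had a log2 level of 0.70, 0.47 and 0.44 in TCEP rats, against 0.91, 0.86 and 0.82 in vehicle rats. All TCEP rats lay below all vehicle rats, a difference of -0.32 (SE 0.09). Tmem72, a membrane protein gene of the same list, chosen after its values were seen, read 0.55, 0.31 and 0.21 in TCEP rats, against 0.73, 0.73 and 0.80 in vehicle rats, a difference of -0.39 (SE 0.10) and of -0.18 with normexp. In the opposite direction, Cldn10, a claudin that forms cation and anion pores, read 2.76, 2.67 and 2.88 in TCEP rats, against 2.64, 2.61 and 2.32 in vehicle rats, a difference of 0.25 (SE 0.11) and of 0.15 without vehicle replicate 3. The calcium-sensing receptor gene Casr (-0.06, SE 0.19) and Bsnd, the barttin subunit of the chloride channels (-0.13, SE 0.08), had smaller differences. Cldn14, which opposes calcium uptake through Cldn16 and Cldn19, had the largest difference of the list at 1.28, with an SE of 1.1. It was set by TCEP rat 1, at -0.74 against -3.63 and -4.24 in the other TCEP rats and -3.39, -3.32 and -5.73 in vehicle rats. Ppp1r1b, the DARPP-32 relative of Ppp1r1a, differed by -0.70 (SE 0.73), between -2.87 and -0.30 in TCEP rats and between -1.47 and -0.06 in vehicle rats.

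**Figure D5:**
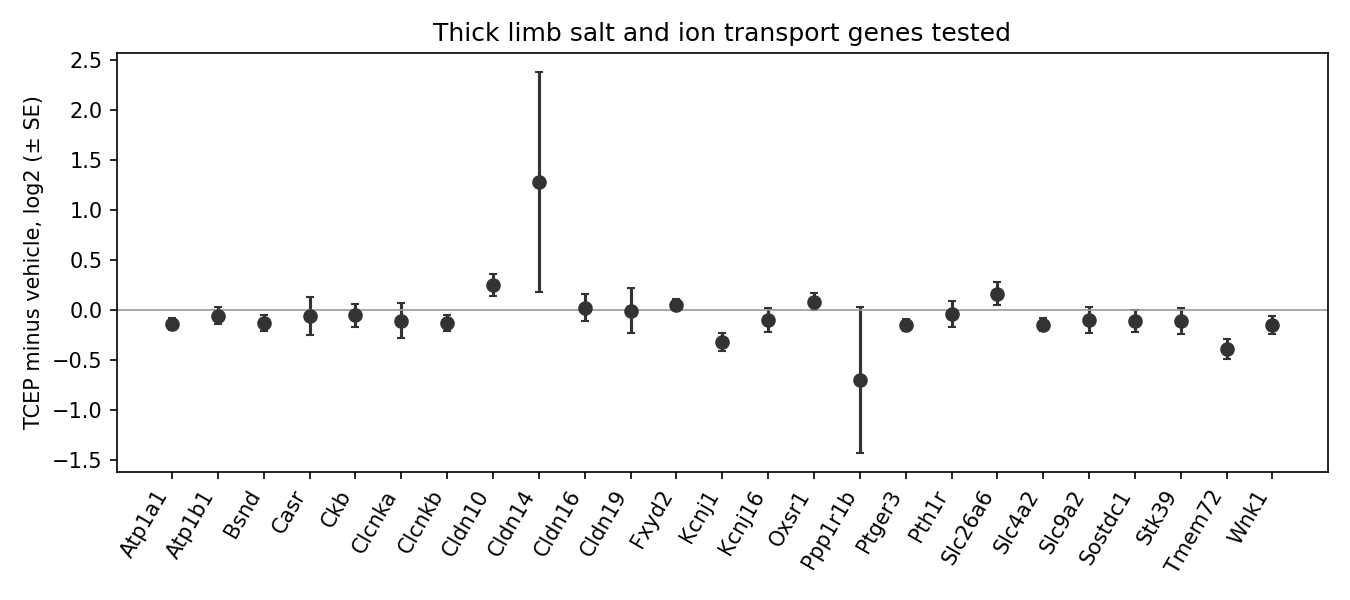
Difference of group means, TCEP minus vehicle with its SE (y axis, log2), for the 25 tested thick limb transport genes (x axis, by name). 19 points lie below 0, Kcnj1 is at -0.32 and Tmem72 at -0.39, and the wide bars of Cldn14 and Ppp1r1b come from animals of the same group that lie far apart.

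Summed over the list, the thick limb signal was between 894 and 949 times the 75th percentile on TCEP arrays, against 966 to 993 times on vehicle arrays, without overlap. Macula densa genes, of the plaque of cells at the end of the limb that senses salt, were measured in 4 cases and all 4 had a lower mean, at a median difference of -0.29 (-0.07 with normexp and -0.14 without vehicle replicate 1). The cyclooxygenase gene Ptgs2 differed by -0.38 (SE 0.27) with overlapping groups, and Nos1 was well above background on 1 TCEP array and 0 vehicle arrays and was not tested.

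Relatives and processing partners of uromodulin had small differences for the most part. Of 13 listed zona pellucida domain genes 8 were tested, 5 with a higher and 3 with a lower mean, with a median of 0.02 (-0.04 without vehicle replicate 2). Zp4, an egg coat gene that was dim here, lay below its vehicle levels in all TCEP rats, with a difference of -0.22 (SE 0.07). It was 0.03 with normexp, whose offset shrinks differences at dim probes. The TGF-beta coreceptor genes Eng and Tgfbr3 differed by 0.06 and 0.02, the tectorins Tectb and Tecta by 0.11 and 0.05, Oit3 by 0.01, Zp3 by -0.01 and Dmbt1, which encodes a scavenger receptor protein of mucosal surfaces, by -0.29. Cuzd1 and Zp1 were not well above background on any array. The egg coat gene Zp2 was well above background on 1 TCEP and 2 vehicle arrays and was not tested, at -7.51, -1.93 and -7.79 in TCEP rats and -7.83, -0.99 and -0.74 in vehicle rats. The list for uromodulin processing and GPI attachment also held protein folding genes, such as Hspa5 and Canx, and the neighbouring gene Pdilt. Of its 17 genes 11 had a higher and 6 a lower mean, with a median of 0.03 (0.09 without vehicle replicate 2). Hpn, which encodes the protease hepsin that releases uromodulin, read 2.98, 2.62 and 2.45 in TCEP rats and 2.49, 2.72 and 2.54 in vehicle rats, a difference of 0.10 (SE 0.15). In 4 of the 17 all TCEP rats lay above all vehicle rats, against 8.64% of all genes. Among them were Pdilt and, chosen after its values were seen, the transamidase subunit Pigk at 0.23 (SE 0.10). Pdilt was tested only because it cleared background on all 3 TCEP arrays. The gaps between the groups were 0.02 for Furin and 0.01 for P4hb. With spike-in centring 2 of the 17 lay above, against 380 of 11798 genes. With quantile normalization 3 lay above and 2 below.

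Among the receptors and fellow ligands of EGF the means were balanced, with 8 of 18 tested genes higher, 10 lower and a median of -0.01 (0.04 without vehicle replicate 3). The receptor gene Egfr read 0.20, 0.38 and -0.01 in TCEP rats and 0.17, -0.11 and 0.73 in vehicle rats, a difference of -0.08 (SE 0.23). Erbb4, a receptor of neuregulins, differed by -0.14 (SE 0.18, and by 0.07 with normexp), and the ligand gene Tgfa by 0.03 (SE 0.07). Hbegf, which encodes a heparin-binding ligand, differed by -0.29 (SE 0.11), and its groups just overlapped. The largest value belonged to the ligand gene amphiregulin (Areg), at -1.39, -1.74 and -1.54 in TCEP rats, against -2.68, -1.94 and -2.91 in vehicle rats. All TCEP rats lay above all vehicle rats, a difference of 0.95 (SE 0.26). Magnesium transport genes, which EGF is known to regulate in the distal tubule, had a median of 0.05 (-0.01 without vehicle replicate 3) over 8 tested genes, with Cnnm2 at -0.21 (SE 0.10), and no probe was matched to the channel gene Trpm6.

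For Ppp1r1a the list held catalytic and regulatory subunits of phosphatase 1 and protein kinase A, with Ppp3 phosphatase genes beside them. Of 23 tested genes 17 had a higher and 6 a lower mean, with a median of 0.04. With normexp 11 were higher and 12 lower, with a median of -0.002. Without vehicle replicate 3 there were 12 higher and 11 lower, with a median of 0.004. The catalytic subunit genes Ppp1ca, Ppp1cb and Ppp1cc differed by 0.04, 0.09 and 0.11, and Prkaca, the kinase that activates inhibitor 1, by 0.08. Of 17 tested transcription factors of the distal nephron 7 were higher and 10 lower, with a median of -0.02. Without TCEP replicate 1 that median was -0.18, with 13 of 17 lower, and without TCEP replicate 2 it was 0.03. Esrrb, which encodes an estrogen-related receptor, was well above background on 2 TCEP arrays and 0 vehicle arrays and was not tested. Irx1 differed by 0.18 (SE 0.37), Tfcp2l1 by -0.18 (SE 0.13) and Pou3f3 by -0.04. Foxi1, the factor of intercalated cells, lay below its vehicle levels in all TCEP rats, at -0.47 (SE 0.18).

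Markers of the other tissues in which Gp2 is abundant were set beside it. Of 25 exocrine pancreas genes 23 had a probe, and 11 of these, among them the carboxypeptidase gene Cpa1, the elastase gene Cela1, the trypsinogen gene Prss1 and the lipase gene Pnlip, were not well above background on any array. The 11 tested genes had 4 higher and 7 lower means and a median of -0.13 (-0.03 with normexp and -0.21 without vehicle replicate 2). Their summed signal with the remaining probes was between 0.92 and 1.19 times the 75th percentile on TCEP arrays and between 0.99 and 1.15 times on vehicle arrays. The bile salt-activated lipase gene Cel differed by -0.13 (SE 0.08). Among tested genes the largest values were 0.34 (SE 0.27) for the chymotrypsin gene Ctrc, with overlapping groups, and -0.43 (SE 0.24) for Ctrl, with all TCEP rats below all vehicle rats. The lipase-related gene Pnliprp1 was well above background on 1 TCEP array alone and was not tested, with an intensity of 4.4, 4.6 and 80.4 units in TCEP rats and 4.0, 3.9 and 4.6 units in vehicle rats. M cell genes had 3 higher and 3 lower means among 6 tested, with the defining factor Spib at -0.01, and summed to between 18.5 and 19.1 times the 75th percentile on TCEP arrays and between 19.1 and 19.6 times on vehicle arrays.

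Markers of several other nephron cells also had lower means. Intercalated cell genes had a lower mean in 9 of 11 cases, with a median of -0.29, and in 7 of them all TCEP rats lay below all vehicle rats, against 6.98% of all genes. With spike-in centring this held for 2 of the 11 intercalated and 0 of the 25 thick limb genes, and for 221 of 11798 genes in all. The summed intercalated signal was between 155 and 175 times the 75th percentile on TCEP arrays, against 188 to 205 times on vehicle arrays. Atp6v1b1, a subunit of the apical proton pump, read 3.46, 3.35 and 3.47 in TCEP rats, against 3.77, 3.64 and 3.76 in vehicle rats, a difference of -0.29 (SE 0.07). Distal convoluted and connecting tubule genes were lower in 8 of 9 cases, with a median of -0.23 (-0.12 without vehicle replicate 1, -0.35 without vehicle replicate 2 and -0.37 with array weights). The thiazide-sensitive cotransporter gene Slc12a3 was at -0.34 (SE 0.20). Principal cell genes were lower in 9 of 10, at a median difference of -0.23 (-0.39 without vehicle replicate 2), and the water channel gene Aqp2 was at -0.09 (SE 0.24). Podocyte genes were lower in 9 of 10, with a median of -0.21 (-0.10 without TCEP replicate 1 or without vehicle replicate 1, and -0.09 with normexp). Nphs1, which encodes nephrin of the glomerular filter, was at -0.32 (SE 0.14). Proximal tubule genes were lower in 6 of 16, with a median of 0.05 (0.16 without TCEP replicate 1 and -0.02 without TCEP replicate 2). No gene of these lists passed the adjusted threshold. The part of the makeup of the sampled cortex in the thick limb values was not tested.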

How the data were processed

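Cy3-labelled RNA of 6 renal cortices (3 TCEP, 3 vehicle) was hybridised to 1-colour arrays. The authors read the spots with Agilent Feature Extraction 10.7.1.1, per the file headers (10.7 per the submitters' processing notes) for a design annotated on rn4, and the deposited processed signal is a background-subtracted intensity on a linear scale, not scaled between arrays. Flags for saturation, outliers and background were deposited as other values of 0 or 1, per the file headers. The deposited series matrix holds the same signal divided by a constant within 0.15% of each array's 75th percentile; its column medians lay between 0.104 and 0.107, on a linear scale without centring of genes.

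Here each log2 signal was taken relative to the 75th percentile of the non-control probes of its array. 12 probes marked as outliers were left out. Probes were named by unversioned accession through RefSeq (GRCr8, for names and gene order), which named 27447 probes (44.5%) and left 34210 unnamed. A gene was represented by its probe with the highest mean and tested where 1 group or both had it well above background throughout. In R 4.3.3, a two-sided moderated test (limma 3.58.1, Benjamini-Hochberg) was fitted over 11798 genes and, for each probe on its own, over 41040 probes, with group as the sole term. The fit was tested on simulated data. Tables used pandas 2.3.3 and numpy 2.4.6 under Python 3.11.15, and figures matplotlib 3.10.9. The number of arrays limits the precision.

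The members and the 17 gene lists were chosen with earlier results of these data known. The rule named every member probe, a few set genes per list with its largest difference in each direction, the measured genes among the 5 on each side of a member, and the 5 genes most correlated with Gp2 and with Umod over 6 arrays; a selection of these is described, and some are not reported here. Alternatives were quantile normalization, no scaling, spike-in centring, normexp (offset 50, on median spot signals, since mean signals are not used here), no filter or detection on all 6 arrays, the mean over probes, the series matrix values, a replicate block, a variance trend, array weights and leaving out each array. Replicate numbers come from the titles. Deviations of same-numbered arrays correlated at -0.15, -0.10 and 0.23, so the numbers were not taken as pairs.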

Additional observations from a re-analysis of the deposited data

How the results depend on the processing

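The Gp2 difference was between 1.74 (normexp) and 2.04 over 17 alternatives and stayed positive in all of them. Its groups did not overlap, so leaving out 1 array could not change its sign. For every member, alternatives that change only the filter, the replicate block or the variance estimate repeat the main difference. Counts of settings by sign are therefore descriptions and not independent agreement. Umod lay between -0.09 and 0.18, Egf between -0.30 and -0.05 and Ppp1r1a between -0.15 and 0.13, and no member moved by over its SD. Umod was positive in 15 of 18 settings, the main one included, but -0.09 without TCEP replicate 1 and without vehicle replicate 3. Ppp1r1a was positive in 7 of 18. Leaving out 1 array gave 0 to 1 genes past the adjusted threshold (1, Dio2, without TCEP replicate 3) and 0 to 3 probes (1 without TCEP replicate 1, 1 without vehicle replicate 1, 3 without vehicle replicate 2), of which 0 were members. Over all alternatives 384 to 1568 genes, against 983, and 1407 to 5291 probes, against 3416, had an unadjusted p under 0.05. With the replicate block 0 genes and 0 probes passed, with 850 genes and 3011 probes at an unadjusted p under 0.05, and no call changed. Without scaling the unadjusted split was 605 higher and 264 lower genes and with spike-in centring 239 and 145, against 497 and 486. The thick limb median lay between -0.16 (array weights) and -0.06, Areg between 0.74 and 1.23, Pdilt between 0.27 and 1.44, and Tmem72 between -0.49 and -0.18. The slide block was not run, since each slide held 1 group, and Tmem207 gave no value. These alternatives for Areg, Pdilt, Tmem72 and the thick limb median were added after seeing the data. Dim probes such as that of Pdilt are limited by background.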

Other observations

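Genes of the thin limb and inner medulla had 7 higher and 7 lower means among 14 tested, with a median of 0.01. The small heat shock protein gene Cryab, abundant in medulla, had the largest value, with log2 levels of 7.77, 6.34 and 5.26 in TCEP rats, against 3.75, 5.44 and 3.76 in vehicle rats. The groups overlapped, since TCEP rat 3 lay below vehicle rat 2, and the difference was 2.14 (SE 0.76). TCEP rat 1, the highest of the 6 for Cryab, was also the highest for Umod, a match on 1 array whose cause was not tested. The urea transporter genes Slc14a2 and Slc14a1 of the same list differed by 0.01 (SE 0.09) and 0.07 (SE 0.17). Summed, the list was between 171 and 370 times the 75th percentile on TCEP arrays and between 135 and 176 times on vehicle arrays. Immune cell genes had a lower mean in 10 of 11 cases, with a median of -0.13. Without vehicle replicate 2 it was 6 of 11 with a median of -0.03, and without vehicle replicate 1 the median was -0.32. The neutrophil gene S100a9 had the lowest value of that list, -1.02 (SE 0.73), with overlapping groups. No gene of either list passed the adjusted threshold.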
